A study of Mus musculus with 6 samples.

Results

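The translation initiation factor genes were taken as every gene of the deposited expression table whose symbol begins with Eif and a digit from 1 to 6, with symbols that hold a hyphen left out. Of 14647 listed genes, 54 matched, 2 pseudogenes had a hyphen, and 52 genes remained. All 52 passed the filter on low values. RNA had been sequenced from the dissected pharyngeal arch region of 3 *Pax9*-null (*Pax9*-/-) and 3 wild-type mouse embryos at E9.5, 1 embryo a library. The comparison asks how the arch transcriptome differs when *Pax9*, a transcription factor gene of the pharyngeal endoderm, is missing. The null allele is constitutive, so the gene was lost in every tissue of the embryo, and the dissected region held endoderm together with mesenchyme, ectoderm, endothelium and blood.

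Initiation factors bring the ribosome to the start codon of an mRNA. The small ribosomal subunit, carrying eIF1, eIF1A, eIF3, eIF5 and the eIF2 complex with the initiator tRNA, joins an mRNA whose cap is held by eIF4E on the scaffold eIF4G beside the helicase eIF4A, and eIF5B then brings in the large subunit. Phosphorylation of eIF2 by stress kinases and of the eIF4E-binding proteins by mTOR are the main switches of the pathway, and growing embryonic tissue makes these factors in large amounts.

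*Pax9* itself lay at log2 RPKM of −0.43, −0.63 and −0.59 in the null libraries and at 0.63, 0.71 and 0.96 in the wild-type libraries, or 40.1% of wild type. Between 11669196 and 12700546 reads could be recovered per library on the listed genes, and initiation factor genes held between 1.447% and 1.609% of them. Some libraries, and for some marker lists the genotypes, stood apart in their cell type markers. The summed RPKM of 5 primitive erythroid markers was 4720 and 4280 in null replicates 1 and 3 and between 2310 and 2560 elsewhere, and that of 5 cardiomyocyte markers was 66.5 in wild-type replicate 3 and between 1010 and 1360 elsewhere. The summed RPKM of 5 endothelial markers was 81.1 in wild-type replicate 1 and between 35.7 and 49.6 elsewhere, and 2 of these markers, *Cdh5* and *Tie1*, were called lower in null embryos. The summed RPKM of 6 neural crest and mesenchyme markers was 70.2 to 72.2 in null and 60.6 to 64.7 in wild-type libraries. Both this sum and the erythroid sum were higher in every null library than in any wild-type library. *Twist1* was called higher (0.35, adjusted *P* = 0.0399) and *Sox10* lower (−0.59, adjusted *P* = 0.0828). The sum of 5 neural markers was 187 in wild-type replicate 3 and 93.9 to 125 elsewhere, and *Elavl3* was called lower (−1.27, adjusted *P* = 0.0411). Of 6 tested pharyngeal endoderm markers none was called. *Epcam*, *Cldn6*, *Foxa2* and *Shh* had a mean log2 RPKM above 1, *Pax1* was low and below wild type in every null library (−0.74, adjusted *P* = 0.101), and *Nkx2-5*, which the heart also expresses, was at −1.56 in wild-type replicate 3 and at 1.85 to 2.49 elsewhere. The part of these cell mixtures in the values below was not tested, and in whole tissue fewer cells of a type and less RNA per cell cannot be told apart.

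Of the 52 members, 17 were differentially expressed at a limma adjusted *P* of at most 0.1, or 32.7%, against 26.7% of all 13547 genes tested, so the share was near that of genes at large. Higher levels in null embryos were called for 12 members, against 14.7% of tested genes, and lower levels for 5, against 12.0%. The libraries of the genotypes did not overlap for 28 members, or 53.8%, against 41.9% of tested genes. Null libraries were all above wild type for 16 of them and all below for 12, against 21.8% and 20.1%. The median log2 fold change of the members, null minus wild type, was 0.09, within a range from −0.78 to 1.03, and that of all tested genes was 0. The direction of that median depended on the scaling, because quantile normalization of the libraries gave −0.08. It called 7 members higher and 13 lower, and 23.5% of all tested genes in either direction.

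The calls rested strongly on single libraries. Without null replicate 1 or null replicate 3, *Eif4a2* alone was called among the members, and 2.22% and 1.29% of all tested genes were called. Without wild-type replicate 1 there were 10 calls and without wild-type replicate 3 there were 11, beside 13.3% and 15.8% of all tested genes. Wild-type replicate 1 was the highest or the lowest of the 6 libraries for 36 of the 52 members. The same count was not made over all tested genes, so it cannot be read as a trait of the members. With the trend of each library against gene length and GC content taken out, 3 members were called, *Eif4a2*, *Eif3j1* and *Eif4ebp2*, and 5.19% of all tested genes.

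**Figure D1:**
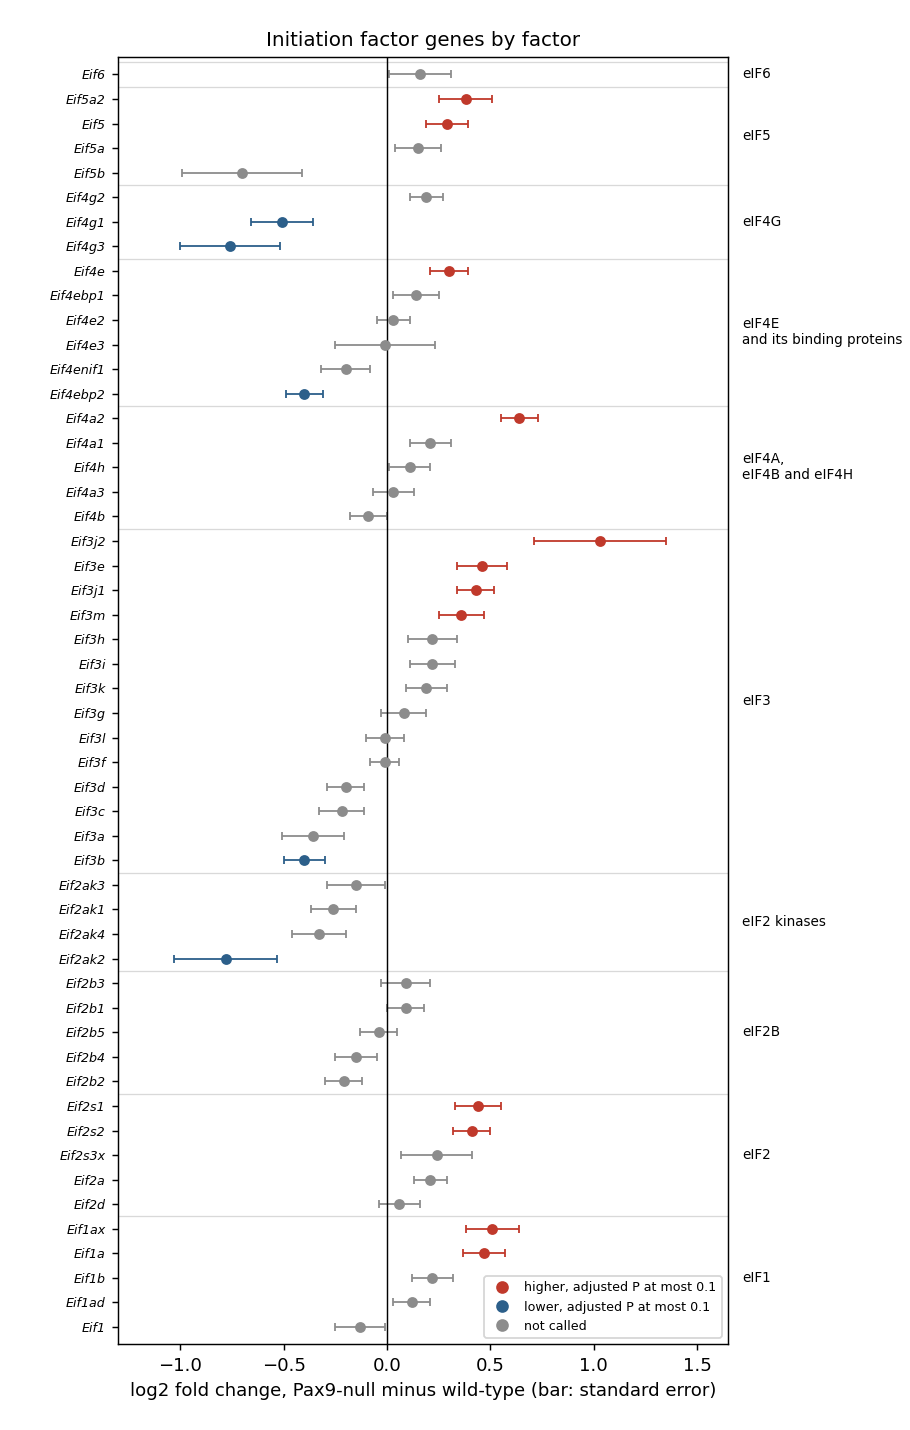
Log2 fold change of the 52 initiation factor genes, Pax9-null minus wild-type, on the x axis, with genes grouped by factor on the y axis and bars for the standard error; red and blue points passed an adjusted P of at most 0.1. The 12 genes called higher lie mostly in eIF1, eIF2 and eIF3, and the 5 called lower include 2 of the 3 eIF4G genes.

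Of the 5 genes for the scanning factors eIF1 and eIF1A and their relatives, 2 were called higher, against 14.7% of all tested genes. *Eif1ax*, the X-linked gene for eIF1A, which keeps the scanning ribosome open on the mRNA, had log2 RPKM of 6.81, 6.56 and 6.70 in null and 5.94, 6.33 and 6.28 in wild-type libraries. Its autosomal relative *Eif1a* had 7.03, 6.93 and 6.98 against 6.36, 6.66 and 6.50. Every null library was above every wild-type library for both genes, with log2 fold changes of 0.51 ± 0.13 (SE, adjusted *P* = 0.0473) and 0.47 ± 0.10 (adjusted *P* = 0.0391). With the length and GC trends taken out the values were 0.29 (adjusted *P* = 0.177) and 0.18 (adjusted *P* = 0.186). *Eif1*, which guards the choice of start codon, had 4.76, 4.85 and 5.16 against 5.11, 5.09 and 4.96, and its genotypes overlapped (−0.13 ± 0.12, adjusted *P* = 0.454). The remaining 2 members, *Eif1b* and *Eif1ad*, were not called, at 0.22 and 0.12. All null libraries of *Eif1b*, a close relative of *Eif1*, were above wild type, and the genotypes of *Eif1ad* overlapped. Of the words of 50 bases in *Eif1*, 19.2% occur in other transcripts, so part of its reads could have been discarded as not unique.

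The eIF2 complex delivers the initiator tRNA. *Eif2s1*, for the alpha subunit that stress kinases phosphorylate, had log2 RPKM of 7.27, 7.0 and 7.18 in null and 6.59, 6.86 and 6.69 in wild-type libraries, a difference of 0.44 ± 0.11 (adjusted *P* = 0.0482). *Eif2s2*, for the beta subunit, had 6.55, 6.41 and 6.42 against 6.0, 6.18 and 5.98, a difference of 0.41 ± 0.09 (adjusted *P* = 0.0414). Both genes rose without overlap of the genotypes, but neither was called with the length and GC trends taken out (0.18, adjusted *P* = 0.229, and 0.26, adjusted *P* = 0.138). The gamma subunit comes from *Eif2s3x*, an X-linked gene known to escape X inactivation, and from its Y-linked partner *Eif2s3y*, which was not analysed here. *Eif2s3x* had 6.52, 6.39 and 6.01 against 6.15, 6.29 and 5.77, and the genotypes overlapped (0.24 ± 0.17, adjusted *P* = 0.357). Of its words of 50 bases, 34.6% occur in other transcripts. Replicate 3 was the lowest of each genotype. In the same replicates *Xist*, the RNA of the inactive X chromosome, lay at −5.55 and −6.48, against 2.35 to 2.88 in the other 4 libraries, so both X-linked members, *Eif2s3x* and *Eif1ax*, were measured across embryos that differed in *Xist*. *Eif2a* and *Eif2d*, for alternative carriers of initiator tRNA, were not called (0.21, adjusted *P* = 0.101, and 0.06, adjusted *P* = 0.68).

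Of the 9 genes for eIF2 kinases and eIF2B, 1 was called, against 26.7% of all tested genes. Of the 4 kinases that phosphorylate eIF2 alpha, *Eif2ak2*, the kinase PKR activated by double-stranded RNA, was called lower. It had log2 RPKM of 1.33, 1.66 and 1.37 in null and 2.80, 1.96 and 1.93 in wild-type libraries (−0.78 ± 0.25, adjusted *P* = 0.0744). The genotypes did not overlap, and wild-type replicate 1 stood above the other 2 of its group, without which *Eif2ak2* was not called. *Eif2ak1*, the haem-regulated kinase and the most abundant of the 4, had 3.15, 3.19 and 3.36 against 3.68, 3.43 and 3.38 (−0.26 ± 0.11, adjusted *P* = 0.146). *Eif2ak4* (GCN2, the kinase of amino acid shortage) and *Eif2ak3* (PERK, that of the endoplasmic reticulum) gave −0.33 and −0.15 and were not called. None of the 5 genes of eIF2B, the exchange factor that recharges eIF2 with GTP, passed the test, with log2 fold changes between −0.21 and 0.09. *Eif2b5*, for its catalytic subunit, had 5.95, 5.97 and 6.20 against 6.08, 6.09 and 6.08, and its genotypes overlapped.

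The 14 genes for subunits of eIF3, the largest initiation factor, were divided. Of these, 4 were called higher and 1 lower, against 14.7% and 12.0% of all tested genes. *Eif3e*, the most abundant member of all, had log2 RPKM of 8.90, 8.68 and 8.85 in null and 8.22, 8.52 and 8.30 in wild-type libraries (0.46 ± 0.12, adjusted *P* = 0.0532). *Eif3m*, for another subunit of the eIF3 core, had 7.34, 7.14 and 7.30 against 6.75, 7.05 and 6.91 (0.36 ± 0.11, adjusted *P* = 0.068). Neither gene overlapped between genotypes, but with the length and GC trends taken out *Eif3e* changed sign, to −0.24 (adjusted *P* = 0.152), and *Eif3m* came to 0 (adjusted *P* = 0.984). *Eif3j1*, for the loosely bound subunit at the mRNA entry channel, had 4.82, 4.73 and 4.78 against 4.33, 4.47 and 4.23 (0.43 ± 0.09, adjusted *P* = 0.0369). *Eif3j1* stayed called with the trends taken out (0.38, adjusted *P* = 0.0785). Of its words of 50 bases, 50.9% occur in other transcripts, and 20.2% of its exon bases overlap other genes.

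Its single-exon copy *Eif3j2* had 0.48, 0.11 and 1.23 against −0.63, −0.10 and −0.54 (1.03 ± 0.32, adjusted *P* = 0.0696), the widest difference of any member. It rested on 19 to 65 reads a library. Of its 50-base words 91.8% occur in other transcripts, chiefly of *Eif3j1*, so many of its reads could have been discarded as not unique. *Eif3b*, the RNA-binding scaffold subunit, had 6.07, 6.35 and 6.31 in null and 6.68, 6.73 and 6.53 in wild-type libraries, and was lower without overlap (−0.40 ± 0.10, adjusted *P* = 0.0513). *Eif3a*, the largest subunit, had 6.63, 6.90 and 6.44 against 7.27, 6.91 and 6.87, and its genotypes overlapped (−0.36 ± 0.15, adjusted *P* = 0.139). The other 8 subunits were not called, between −0.22 for *Eif3c* and 0.22 for *Eif3h* and *Eif3i*. The subunit genes thus were called in both directions within 1 complex in the main fit, and their median of 0.14 turned to −0.11 under quantile normalization. With the length and GC trends taken out, *Eif3b* came to −0.17 (adjusted *P* = 0.248) and *Eif3j2* to 0.60 (adjusted *P* = 0.269). *Eif3j1* was then the only eIF3 gene called.

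**Figure D2:**
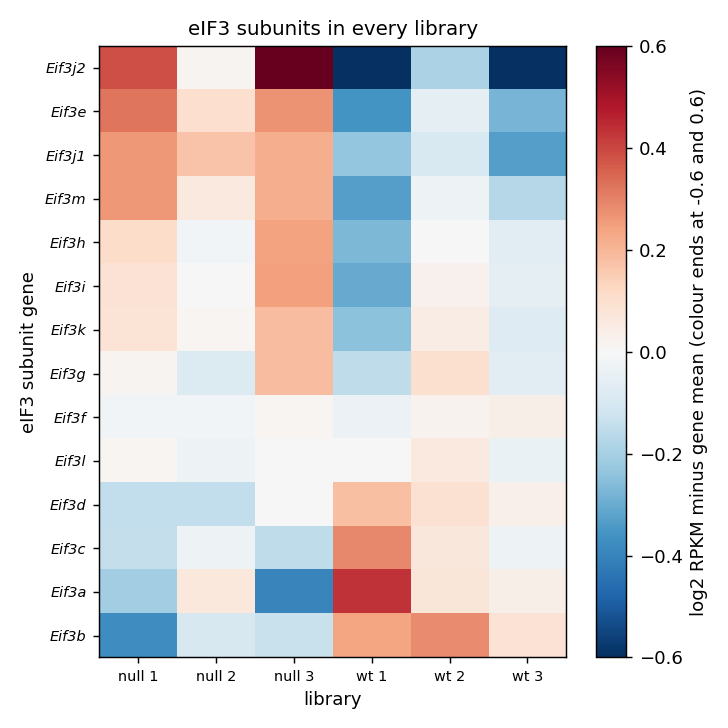
Log2 RPKM of the 14 eIF3 subunit genes (rows, ordered by log2 fold change) minus each gene's mean, in the 6 libraries (columns, wt for wild-type); red is above and blue below the gene's mean. Eif3e, Eif3j1 and Eif3m are above their mean in every null library, Eif3b is below it in every null library, and wild-type replicate 1 holds the widest deviation of several rows.

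Among the helicase genes, *Eif4a2* changed and its near relatives did not pass the test. eIF4A unwinds mRNA at the cap, and *Eif4a1* is its main gene in dividing cells, whereas *Eif4a3* belongs to the exon junction complex. *Eif4a2* had log2 RPKM of 5.89, 5.84 and 5.89 in null and 5.05, 5.33 and 5.31 in wild-type libraries. The null libraries were close together and well above the highest wild-type library (0.64 ± 0.09, adjusted *P* = 0.0166). *Eif4a2* was called in all 6 fits that left out a library, and it had the lowest adjusted *P* of the members. With the length and GC trends taken out its log2 fold change was 0.43 (adjusted *P* = 0.0591). *Eif4a1*, the more abundant gene, had 8.34, 8.21 and 8.28 against 8.0, 8.18 and 8.0, also without overlap but not called (0.21 ± 0.10, adjusted *P* = 0.178), and came to −0.17 with quantile normalization. *Eif4a3* came to 0.03, and the difference between the paralogues was not tested. The helicase partners *Eif4b* and *Eif4h* came to −0.09 and 0.11. *Eif4a2* is host to small nucleolar RNA genes, which with other genes overlap 13.3% of its exon bases.

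The 3 helicases are shown at the codons of their shared DEAD motif (capitals), which binds ATP, because these related genes gave different fold changes. The sequences were read from the coding transcripts of GENCODE M21 on GRCm38. *Eif4a2* (codons 176 to 195) lies at chr16:23110239-23110298 on the plus strand, *Eif4a1* (codons 174 to 193) at chr11:69668689-69668748 on the minus strand, and *Eif4a3* (codons 179 to 198) at chr11:119294026-119294376 on the minus strand, with an intron inside the span.
Eif4a2: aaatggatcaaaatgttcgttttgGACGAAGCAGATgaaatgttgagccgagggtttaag
Eif4a1: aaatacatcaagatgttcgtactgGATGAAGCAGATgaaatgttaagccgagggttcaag
Eif4a3: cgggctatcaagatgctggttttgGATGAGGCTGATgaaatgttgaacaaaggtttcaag
Over the whole coding sequence *Eif4a1* and *Eif4a2* shared 90.2% of residues and 78.6% of bases, and *Eif4a1* and *Eif4a3* shared 66.8% and 68.4%. The third codon position was G or C in 44.4% of *Eif4a2* codons, 57.6% of *Eif4a1* codons and 70.1% of *Eif4a3* codons.

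Of the genes around the cap, that of the binding protein rose and that of a repressor fell. *Eif4e*, for the cap-binding protein itself, had log2 RPKM of 6.06, 5.82 and 6.0 in null and 5.58, 5.76 and 5.65 in wild-type libraries, and was higher without overlap (0.30 ± 0.09, adjusted *P* = 0.0742). With the length and GC trends taken out it was not called (0.17, adjusted *P* = 0.286). *Eif4ebp2*, for a repressor that holds eIF4E away from eIF4G, had 3.64, 3.64 and 3.70 against 4.07, 3.94 and 4.18. It was lower without overlap (−0.40 ± 0.09, adjusted *P* = 0.0428), and stayed called with the trends taken out (−0.53, adjusted *P* = 0.0607). *Eif4ebp1*, the second repressor gene, was not called, at 0.14. The related cap-binding genes *Eif4e2* and *Eif4e3* came to 0.03 and −0.01, and *Eif4enif1*, for a transporter of eIF4E, to −0.20.

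Of the 3 scaffold genes of the eIF4G family, 2 were called lower, against 12.0% of all tested genes. *Eif4g1*, for the main bridge between cap and ribosome, had log2 RPKM of 6.13, 6.44 and 6.26 in null and 7.11, 6.65 and 6.60 in wild-type libraries (−0.51 ± 0.15, adjusted *P* = 0.0658). *Eif4g3*, its less abundant relative, had 1.76, 2.38 and 1.86 against 3.22, 2.43 and 2.63 (−0.76 ± 0.24, adjusted *P* = 0.0751). Both fell without overlap, although null replicate 2 of *Eif4g3* lay only just under the lowest wild-type library. *Eif4g2*, also known as DAP5, which lacks the eIF4E-binding part and serves cap-independent initiation, had 7.42, 7.41 and 7.47 against 7.20, 7.29 and 7.24. All its null libraries were above wild type, and the difference was not called (0.19 ± 0.08, adjusted *P* = 0.147, and −0.08 with quantile normalization). With the trends taken out *Eif4g1* came to −0.13 (adjusted *P* = 0.427) and *Eif4g3* to −0.36 (adjusted *P* = 0.222), and without wild-type replicate 1 *Eif4g3* was not called. Summed over the 3 genes, of which *Eif4g2* was the most abundant, the RPKM was 245, 262 and 257 in null and 295, 262 and 255 in wild-type libraries, so the family total overlapped between genotypes.

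**Figure D3:**
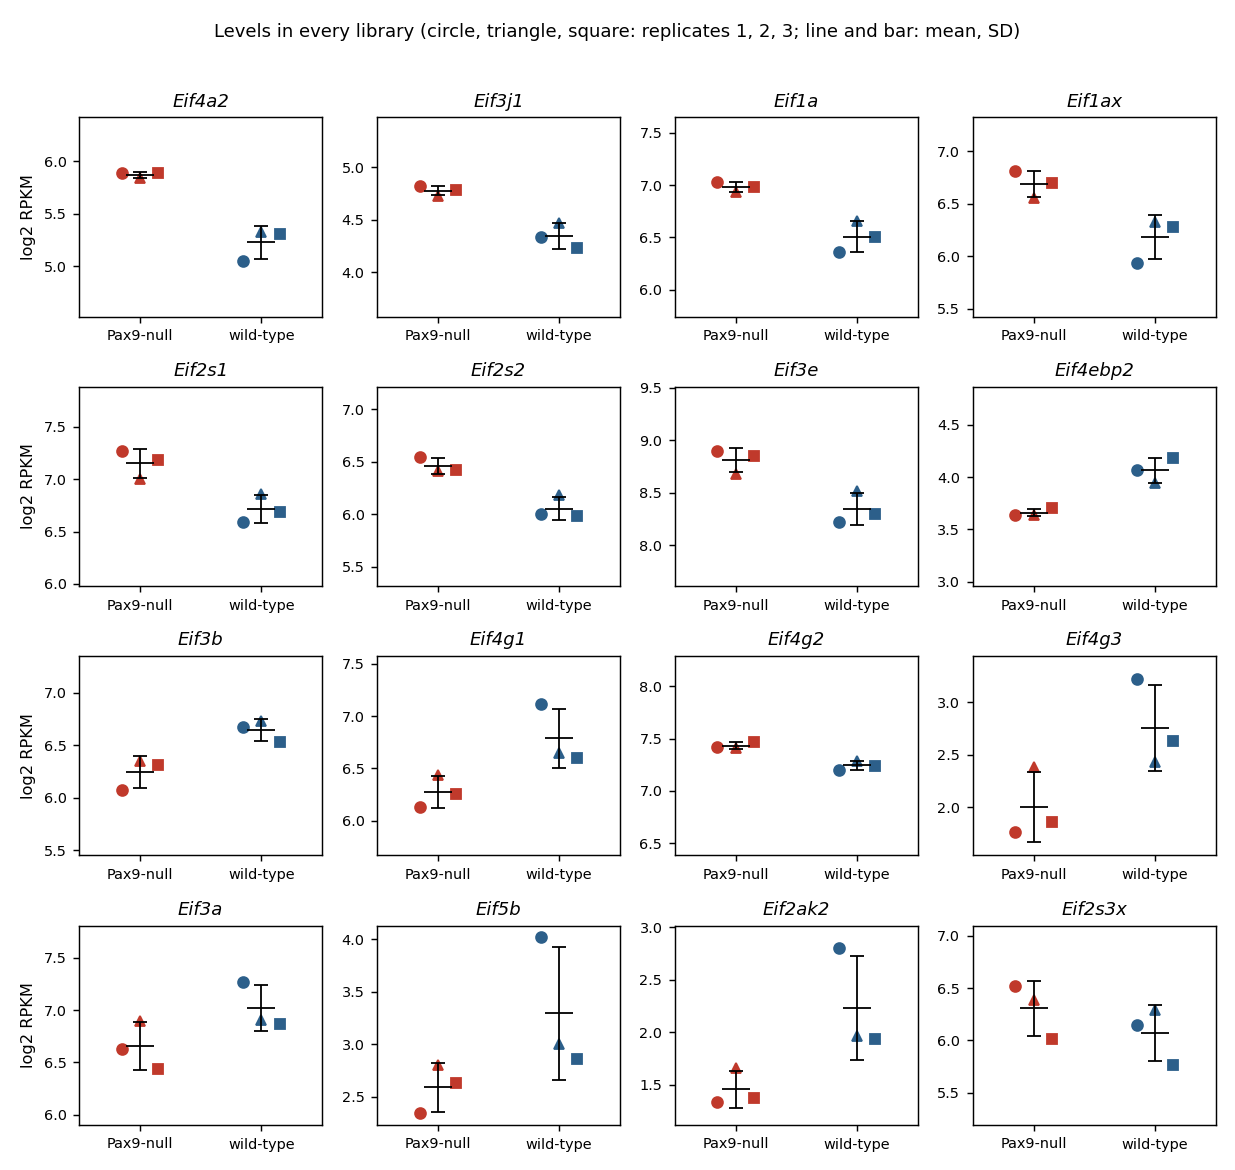
Log2 RPKM of 16 initiation factor genes in every library, Pax9-null in red and wild-type in blue, with symbols for replicates 1 to 3 and a line and bar for the mean and SD; each panel spans the same height on the y axis. Eif4a2, Eif4g2 and Eif4ebp2 have tight null groups, while Eif4g3, Eif5b and Eif2ak2 have wild-type replicate 1 well above the other 2 wild-type libraries.

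Late-acting factors included 2 genes called higher, both among the 4 eIF5 genes, against 14.7% of all tested genes. *Eif5*, for the protein that triggers GTP hydrolysis on eIF2, and *Eif5a2*, for an isoform of eIF5A, were higher by 0.29 (adjusted *P* = 0.0911) and 0.38 (adjusted *P* = 0.0925), and both lost the call with the trends taken out. *Eif5a*, for the abundant isoform that helps ribosomes through difficult peptide bonds, had log2 RPKM of 8.26, 8.25 and 8.41 in null and 8.01, 8.30 and 8.16 in wild-type libraries. Its genotypes overlapped (0.15 ± 0.11, adjusted *P* = 0.37), and quantile normalization turned it to −0.23 (adjusted *P* = 0.0793). *Eif5b*, for the GTPase of subunit joining, had 2.34, 2.80 and 2.63 against 4.02, 3.0 and 2.86 (−0.70 ± 0.29, adjusted *P* = 0.133). The genotypes did not overlap, but wild-type replicate 1 was far above the rest. *Eif6*, which keeps free large subunits from joining, had 5.49, 5.56 and 5.89 against 5.24, 5.66 and 5.58, with overlap (0.16 ± 0.15, adjusted *P* = 0.471).

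The pair of eIF5A genes is shown around the lysine that is turned into hypusine, the modified residue found in eIF5A alone. Capitals mark the codons of the TGKHG stretch, in codons 40 to 60 of both genes, with coordinates on GRCm38 that span introns, chr3:28782169-28782742 on the plus strand for *Eif5a2* and chr11:69918007-69919198 on the minus strand for *Eif5a*.
Eif5a2: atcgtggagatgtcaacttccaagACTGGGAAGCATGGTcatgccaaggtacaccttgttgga
Eif5a: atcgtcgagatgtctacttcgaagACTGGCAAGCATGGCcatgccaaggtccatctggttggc
The proteins shared 82.5% of residues and the coding sequences 74.4% of bases. *Eif5a2* had G or C at the third codon position in 43.8% of codons and *Eif5a* in 56.5%. Related pairs did not all run the same way with this share. *Eif1* and *Eif1b*, with 92.0% identical residues, had 49.6% and 62.8% and log2 fold changes of −0.13 and 0.22. Over 51 members with a complete coding sequence, rho of the fold change with the share was −0.33, and no difference between paralogues was tested.

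The medians of small and large factors lay on opposite sides of 0, as a description with no test. The 17 small factors measured (eIF1 and eIF1A, eIF5A, eIF4E and its short binding proteins, eIF3j, eIF3k, eIF4H and eIF6) had a median log2 fold change of 0.16, with 6 called higher and 1 lower, against 14.7% and 12.0% of all tested genes. The 5 scaffold and large factors (the 3 eIF4G genes, *Eif3a* and *Eif5b*) had a median of −0.51, with none called higher and 2 lower. The difference between the medians was 0.66. Both sets were lists of named genes, not a cut by size. *Eif2ak4*, *Eif2ak3*, *Eif4enif1* and *Eif3c* encode 1648, 1114, 983 and 911 residues, more than *Eif4g2* (906), and were not listed as large. Their log2 fold changes were smaller, at −0.33, −0.15, −0.20 and −0.22. Members of both sets ran against their median, *Eif4g2* among the large factors (0.19) and *Eif4ebp2* (−0.40), *Eif1* (−0.13) and *Eif4e3* (−0.01) among the small. In single libraries the mean log2 RPKM of the small minus that of the large factors was 0.38, −0.07 and 0.40 in null and −0.88, −0.14 and −0.20 in wild-type embryos. Null libraries were all above wild type, but null replicate 2 lay near wild-type replicates 2 and 3.

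Across all tested genes, a comparison by gene length also put every null library above every wild-type library. The factor sets were lists of named genes, not cut by gene length, but the large factors mostly had longer genes. *Eif5b*, *Eif4g2* and *Eif4g3*, at 9753, 10166 and 11063 bp, were longer than every small factor. Genes of the small factors measured 1125 to 7497 bp and those of the large factors 5176 to 11063 bp. Whether both shifts share a cause was not tested. The decile of shortest genes minus that of longest genes, as the median deviation from each gene's mean, was 0.41, 0.15 and 0.61 in null and −0.80, −0.01 and −0.28 in wild-type libraries. With length and GC trends taken out, the difference of the medians of small and large factors was 0.54, and the values by library were 0.24, −0.09 and 0.21 against −0.64, −0.13 and −0.11, still without overlap. Leaving out 1 library gave 0.45 to 0.82, the lowest without wild-type replicate 1.

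**Figure D4:**
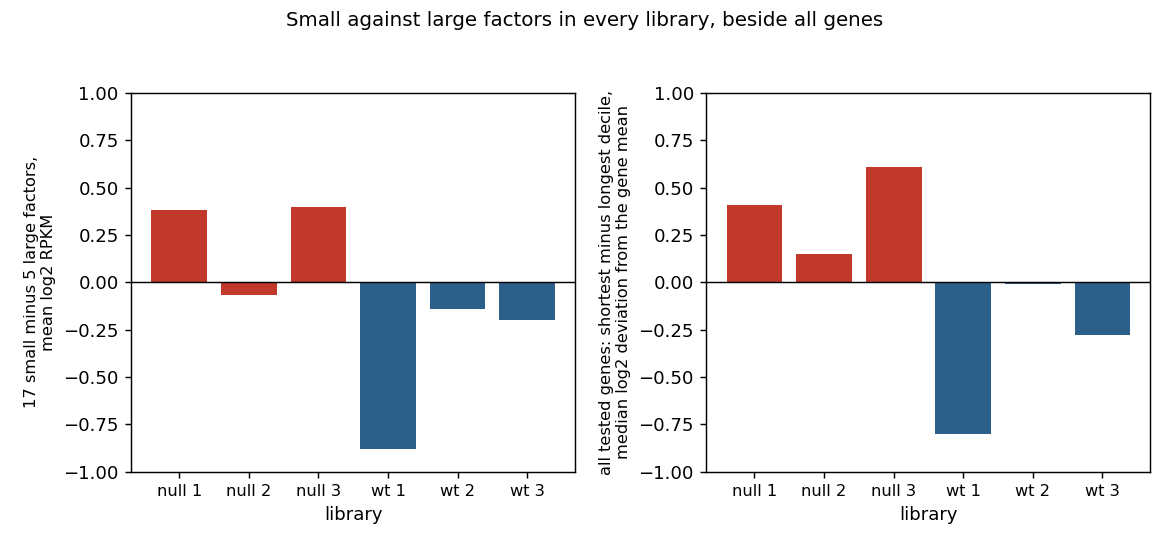
Bars for each library (x axis, wt for wild-type) of the mean log2 RPKM of 17 small minus 5 large initiation factors (left) and of the shortest minus the longest decile of all tested genes, as the median log2 deviation from the gene mean (right), Pax9-null in red and wild-type in blue. Wild-type replicate 1 has the lowest bar in both panels, at −0.88 and −0.80.

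The members called higher were poor in G and C and ran from 1541 bp (*Eif3e*) to 6755 bp (*Eif2s2*) in the length used. For *Eif3e* that length was inferred from the deposited values, and its annotated exons cover 6719 bp. Among members with a GC content under 45%, 11 of 17 were called higher and 1 lower, with a median log2 fold change of 0.36. Among those with 50% or more, none of 27 was called higher and 4 were called lower, with a median of −0.01. All tested genes showed the same order, with 1053 of 3215 called higher and 21 lower under 45% and 396 of 6591 higher and 1395 lower at 50% or more. By medians, members called higher measured 4544 bp with 41.4% GC, those called lower 5113 bp with 53.2%, and those not called 3209 bp with 50.6%. Over the 52 members, which share their libraries, fold change had a Spearman rho of −0.54 with GC content and −0.53 with coding length but −0.14 with gene length. Over all tested genes it was −0.44, −0.49 and −0.41. With the trends taken out, rho over the members was −0.12 with GC content, −0.34 with coding length and 0.25 with gene length.

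**Figure D5:**
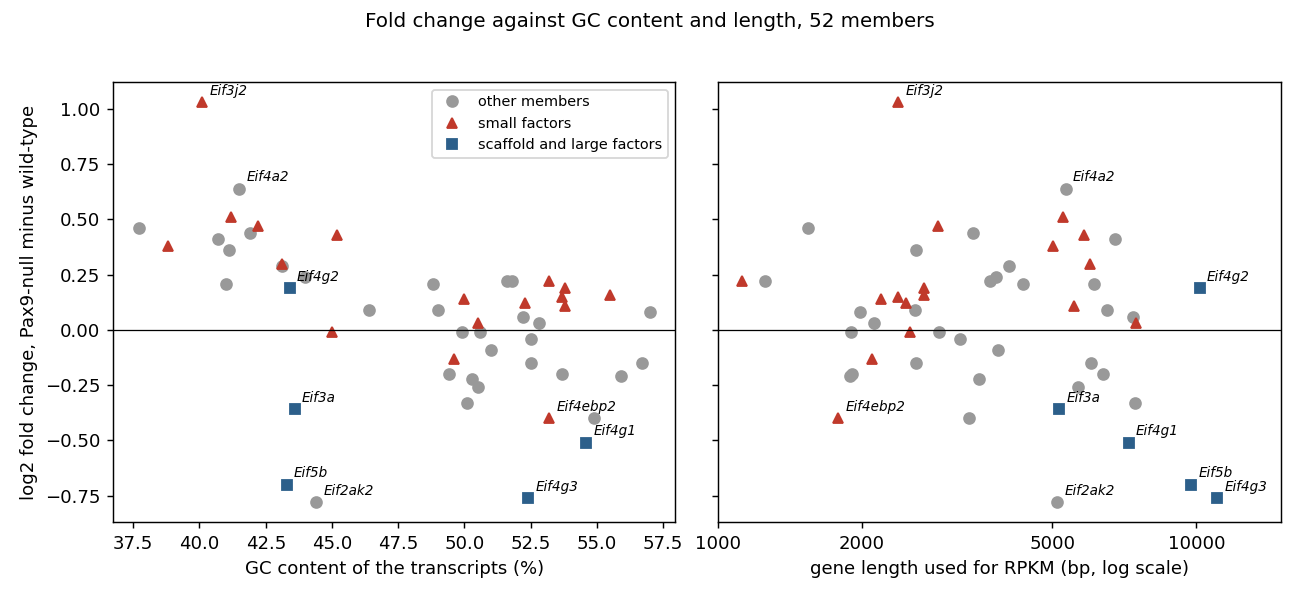
Log2 fold change of the 52 members (y axis, Pax9-null minus wild-type) against the GC content of their transcripts in percent (left) and the gene length in bp on a log axis (right), with small factors as red triangles and large factors as blue squares. Genes under 45% GC lie mostly above 0, with Eif2ak2, Eif5b and Eif3a as low-GC exceptions far below it, and the order with length is weak (rho −0.14).

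Many mRNAs of the translation machinery begin with a terminal oligopyrimidine tract, a C at the cap followed by pyrimidines, through which LARP1 and mTOR control them. Start sequences on GRCm38.p6 from RefSeq were found for 42 members. An unbroken run of C and T from the start site, beginning with C and at least 5 bases long, was found in 2 of them, or 4.8%, against 3.0% of 27025 genes with a start sequence. Only the strand that reads like the RNA was searched, and only from the listed start base. Runs of C and T that crossed that base could be missed, as in *Eif2b5* and *Eif3l*. The 2 genes with a tract are shown with *Eif4a2* for comparison, over 10 bases before and 20 from the start site, with the run in capitals. *Eif3f* (a core subunit of eIF3) lies at chr7:108934405-108934434 on the plus strand, *Eif2s3x* at chrX:94212632-94212661 on the minus strand and *Eif4a2* at chr16:23107458-23107487 on the plus strand.
Eif3f: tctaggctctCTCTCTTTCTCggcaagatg
Eif2s3x: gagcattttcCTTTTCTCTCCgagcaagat
Eif4a2: gaaaccccgtaggagcagggcggccgagga
Neither gene with a tract was called (−0.01 for *Eif3f* and 0.24 for *Eif2s3x*), and with 2 such genes no difference from the other members can be read. No start sequence was matched for 10 members, the called genes *Eif3e*, *Eif1a* and *Eif3j2* among them.

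Other genes of the pathway also ran both ways. Of 24 tested partners and regulators of initiation, 4 were called higher and 6 lower, against 14.7% and 12.0% of all tested genes. Their median log2 fold change was 0.01. *Paip2*, a repressor of the poly(A)-binding protein, rose by 0.57 (adjusted *P* = 0.0513), *Mcts1*, for a factor in re-initiation, by 0.53 (adjusted *P* = 0.0347), *Paip1*, for a partner of eIF4A and the poly(A)-binding protein, by 0.42 (adjusted *P* = 0.042) and *Abce1*, for the ribosome recycling factor, by 0.34 (adjusted *P* = 0.0549). The kinase gene *Mtor* was lower (−0.65, adjusted *P* = 0.0471), as were *Rptor*, for its partner in complex 1 (−0.52, adjusted *P* = 0.0549), and *Larp1* (−0.64, adjusted *P* = 0.0751). The remaining genes called lower were *Abcf1*, *Dhx29* and *Mknk2*, at −0.69, −0.36 and −0.29. With the trends taken out, *Dhx29*, a helicase for structured leaders, was the only one of the 24 called (adjusted *P* = 0.0934).

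Of 11 elongation and release factor genes, 3 were called higher (*Eef1b2*, *Eef1e1* and *Etf1*) and 1 lower (*Eef2k*, the kinase that inhibits eEF2). The shares over all tested genes were 14.7% and 12.0%, and the median of the 11 was 0.18. With the length and GC trends taken out none of the 11 was called, and *Eef1e1* turned from 0.54 to −0.15. Of 7 genes for mitochondrial translation factors, *Mtrf1* was called higher and *Tufm* lower. With the trends taken out *Tufm* and *Tsfm* were called, and *Mtrf1* came to 0.01 (adjusted *P* = 0.968). Genes that respond to eIF2 phosphorylation showed no common direction. Of 11 tested, none was called higher and 2 were called lower, against 14.7% and 12.0% of all tested genes. The 2 were *Sesn2* (−0.53, adjusted *P* = 0.0491) and *Shmt2* (−0.35, adjusted *P* = 0.0751), and the median was −0.04. None of the 11 was called with the trends taken out. The transcription factor genes *Atf4* and *Ddit3* of this response came to −0.08 (adjusted *P* = 0.714) and 0.03 (adjusted *P* = 0.925).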

How the data were processed

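Per the labels and the study's methods, the authors trimmed reads with Trimmomatic 0.32, kept uniquely aligned, non-redundant reads, sub-sampled libraries towards the smallest, aligned to GRCm38 with STAR and counted reads on Ensembl genes with featureCounts 1.5.1. The labels name sorted cells and another library kit, and the methods whole dissected tissue, which was followed here. The authors deposited log2 RPKM, which scales reads by gene length and library size with a small prior, from −7.15 to 11.02. Whole reads were recovered from these values with a prior count of 0.5 (82.7% whole within 0.05 reads at GENCODE M21 lengths). For 2798 genes another length that gave whole reads was used in place of the annotated one. Of the 52 members, 39 were whole at the annotated length. Gene lengths, rho with length and the removed trends rest on these partly inferred lengths. Depth per library is given with the results.

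Genes averaging 0.5 RPKM or more were tested, two-sided, with limma 3.58.1 in R 4.3.3 (lmFit and eBayes with trend, no covariate) on the deposited log2 values, with Benjamini-Hochberg adjustment over all 13547 and a threshold of 0.1. The fit was tested on simulated data. Fold changes are on the log2 RPKM scale. Each library is 1 embryo, so *P* values measure the spread between 3 embryos a genotype. An exact permutation test of 1 gene cannot go below 0.1. Per-library trends with length and GC content were removed by natural splines as an alternative, beside other scalings, filters, pseudocounts, weights, a replicate block and leaving out each library. Limma voom on the recovered reads was added after seeing the data. Counting was unstranded, so reads of overlapping genes could not be told apart. The members and lists were chosen with earlier results of these data known. Values in every library are printed for the most abundant member of each factor, for the 15 called, non-overlapping members of smallest adjusted *P*, and for a list of 12 genes of which *Eif2s3y* was not analysed here. *Eif4e1b* and *Eif4ebp3* were not analysed here.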

Additional observations from a re-analysis of the deposited data

How the results depend on the processing

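The number of members called, 17 at an adjusted *P* of at most 0.1, was 4 with a replicate block, 11 with eBayes without a trend, 3 with length and GC trends removed, 7 at an adjusted *P* of at most 0.05, and 1 to 17 with 1 library left out. The 12 called higher became 7 with quantile normalization, 3 with the replicate block, 2 with trends removed, 6 at 0.05 and 1 to 12 with 1 library left out. The 5 called lower became 13 with quantile normalization, 1 with the replicate block, 3 without the eBayes trend, 1 with trends removed, 1 at 0.05 and 0 to 6 with 1 library left out. The block called *Eif4a2*, *Eif4ebp2*, *Eif3j1* and *Eif1a*. Deviations of same-numbered embryos had correlations of −0.02, −0.17 and 0.26, and so few values cannot settle whether the numbers pair embryos. Of all 13547 genes tested, 3177 were called with quantile normalization, 1335 at 0.05, 1377 with the block and 2818 without the eBayes trend. With trends removed 703 were called, and with 1 library left out 175 to 3578. The median log2 fold change of 0.09 was −0.08 with quantile normalization. The sign of the log2 fold change turned for 8 of the 52 members with trends removed, of which *Eif3e* (−0.24) and *Eif3m* (0) had been called, for 11 with quantile normalization, none called before, of which *Eif5a* (−0.23) became called lower, for 3 with libraries centred on their median and for 0 to 4 with 1 library left out. The causes were not tested. Limma voom on recovered reads called 20 members and 3845 of all tested genes. The difference between small and large factors kept its sign in every alternative run. Depth limited *Eif3j2* most, with 19 reads in its lowest library.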

Other observations

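Both hyphenated rows are pseudogenes of initiation factors, left out of the members. *Eif5al3-ps*, a copy of *Eif5a*, had log2 RPKM of 2.35, 2.31 and 2.84 in null and 1.02, 1.49 and 0.90 in wild-type libraries (1.36, limma adjusted *P* = 0.0181), while *Eif5a* itself was not called. *Eif4a-ps4*, which shares sequence with *Eif4a1*, had 3.76, 3.96 and 4.52 against 3.09, 3.72 and 3.34 (0.69, adjusted *P* = 0.0774). With length and GC trends removed the differences were 0.59 (adjusted *P* = 0.0957) and 0.22 (adjusted *P* = 0.477).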
